A study of Homo sapiens with 12 samples.

Results

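The microRNA transcript clusters described here were measured on Affymetrix Human Transcriptome Array 2.0 arrays in SH-SY5Y, a human neuroblastoma cell line of sympathoadrenal origin. A transcript cluster is the array's unit for a gene, and its value is a log2 signal. Members were the clusters annotated with 1 symbol of a microRNA gene and a mean log2 signal of at least 7.2 over all 6 gene-level samples. The 5 microRNAs of the RTL1 span (MIR431, MIR433, MIR127, MIR432 and MIR136) were left out. The rule gave 116 clusters with 111 distinct symbols, of 1083 microRNA clusters outside that span and 67528 clusters on the array. The members were chosen by this mean signal over both groups, so their levels below are a description, while the difference between the groups was not used. The other 967 microRNA clusters lay under the threshold, and the median over all 1083 was 4.65.

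All cells were grown in DMEM/F-12 medium with 15% serum and electroporated once at 1100 V for 50 ms, and total RNA was extracted 48 h later. The MATR3 siRNA group (3 samples) received an siRNA against MATR3, a nuclear matrix protein that binds RNA and DNA, and the control group (3 samples) a negative control siRNA. No untreated cells are among the samples used, and the cells are 1 established line transfected transiently as a population. Nothing in the labels states separate cultures for the replicates, so the p-values reflect only how far these samples lie apart, and that spread could be technical.

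MicroRNAs are transcribed as longer primary transcripts, often from the introns of host genes. The nuclear Microprocessor, formed by DROSHA and DGCR8, cuts out a hairpin, XPO5 exports it, and DICER1 trims it to a short duplex. One strand is loaded into an Argonaute protein and guides it to messenger RNAs that pair with its seed, the bases next to its 5′ end. The array was hybridised with cDNA made from 100 ng of total RNA. Whether a cluster's signal came from the primary transcript, the hairpin or the mature microRNA was not tested.

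The sequences below are those of the microRNAs on which the results turn, from RefSeq on GRCh38.p14, written 5′ to 3′ with the seed (bases 2 to 8) in capitals. RefSeq held a mature sequence for 95 of the 111 symbols, with 125 mature names in all. MIR218-2 had the highest difference, and MIR9-1 and MIR25 were the members found in the lists of known microRNA families described below. The 5p strands of MIR548G, MIR548X, MIR548AJ2 and MIR548F1 share 1 seed, and the 3p strands of MIR548AJ2 and MIR548X share another. The MIR548AI and MIR570 strands share a seed and all their bases. MIR1260A and MIR1260B share a seed but differed from control in opposite directions on average.
miR-218-5p: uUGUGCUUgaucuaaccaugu
miR-218-2-3p: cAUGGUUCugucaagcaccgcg
miR-9-5p: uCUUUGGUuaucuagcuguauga
miR-25-3p: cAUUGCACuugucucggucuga
miR-4468: aGAGCAGAaggaugagau
miR-548g-5p: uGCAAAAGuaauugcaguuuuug
miR-548x-5p: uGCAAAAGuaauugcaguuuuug
miR-548aj-5p: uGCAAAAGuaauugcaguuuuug
miR-548f-5p: uGCAAAAGuaaucacaguuuuu
miR-548g-3p: aAAACUGUaauuacuuuuguac
miR-548aj-3p: uAAAAACUgcaauuacuuuua
miR-548x-3p: uAAAAACUgcaauuacuuuc
miR-548ai: aAAGGUAAuugcaguuuuuccc
miR-570-5p: aAAGGUAAuugcaguuuuuccc
miR-1260a: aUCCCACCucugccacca
miR-1260b: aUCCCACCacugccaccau

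The miR-548 sequences were poor in G and C. Their 19 mature names, from 16 symbols, had a median GC content of 35%, against 57.1% over the 106 mature names of the other members. The letters UUACUUUU, searched on the mature strand only, stood in 6 of the 19 miR-548 names and in 0 of the other 106. They are part of strands printed above, such as miR-548g-3p, so the counts describe the family and are not a test. The same letters stood in 2 of 2315 RefSeq mature names outside the MIR548 genes and chromosome 8. The hairpins of 70 member clusters were in RefSeq, with a median GC content of 57.8% (range 27.3% to 86.4%). That was above the 48.7% median of 801 microRNA clusters below the threshold. MIR548M was the only MIR548 symbol among the member hairpins, so their median leaves out nearly all of that family.

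The cells and the knockdown were checked first. The MATR3 cluster, whose annotation also names SNHG4, lay below all 3 control samples in each knockdown sample, at 45.4% of control (mean pair difference fell by 1.14 on the log2 scale, SD 0.09, n = 3 pairs). Of 10 noradrenergic markers with a cluster of their own, 9 were above 7.2, with DBH at 16.62, while TH, the first enzyme of catecholamine synthesis, lay below it at 4.76. The 15 markers of other cell types all had means below 7.2, from 3.85 to 6.71. Both replicate 1 arrays differed from the rest: they exceeded the other 4 arrays in 73.8% of 33782 kept clusters (mean signal at or above the median of all clusters) and in 83 (71.6%) of the 116 members. Differences are therefore given as the mean and SD of the 3 pair differences, MATR3 siRNA minus control siRNA of the same replicate number. Background probe sets, which match no human sequence, had a median of 3.66. The highest signal among the 23 on each array, not always from the same probe set, was 7.15, 6.95 and 6.83 after MATR3 siRNA and 8.75, 6.87 and 6.48 in controls. These maxima averaged 7.17, and the probe set with the highest mean stood at 6.93, so the threshold sits near the top of the background. The maxima came from the probe sets whose probes hold 3 or 4 G and C bases, while the one with 5 had a mean of 5.89. The GC content of the members' probes was not examined.

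**Figure D1:**
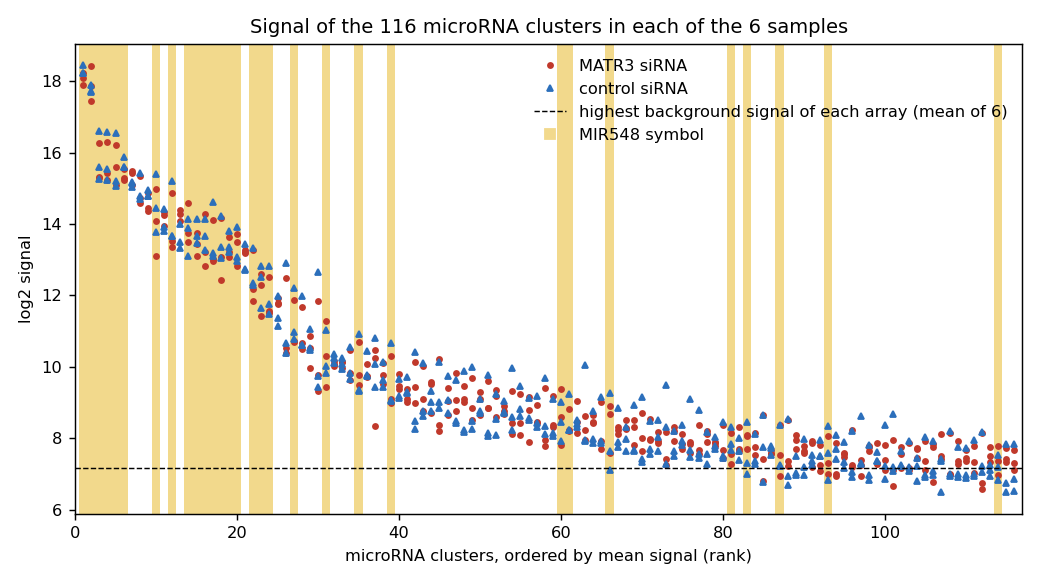
Log2 signal (y axis) of each of the 116 microRNA clusters, ordered by mean signal (x axis), in 3 MATR3 siRNA samples (circles) and 3 control siRNA samples (triangles), with MIR548 symbols shaded and the mean over the arrays of the highest background signal dashed. MIR548 clusters fill 18 of the 24 brightest places, and the dim end of the order runs along the background line at 7.17.

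Levels of the members ran from 7.22 to 18.19 with a median of 8.54, and 85 members reached 7.2 in all 6 samples. Signals of different probe sets depend on the probes as well as on the amount of RNA, so the order of levels describes the arrays and not the abundance of the microRNAs. The threshold was met by both group means in 107 members. It was met only after MATR3 siRNA in 7 (MIR218-2, MIR1264, MIR9-1, MIR4468, MIR548A2, MIR4440 and MIR4669) and only in controls in 2 (MIR3689F and MIR4479). Those 9 passed through the group where they were higher. Just inside the threshold stood MIR4669 at 7.22, MIR4440 at 7.26 and 1 of the MIR548A2 clusters at 7.28. Just outside stood MIR4522 at 7.17, MIR657 at 7.16 and MIR365A at 7.14.

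Best known microRNA families were mostly below the threshold in these data. None of 10 let-7 clusters reached it, the brightest being MIRLET7F1 at 6.76. Of 9 clusters of the miR-17-92 group and its paralogs, 1 did, MIR25. Of 25 listed clusters of microRNAs known from the nervous system, 1 did, MIR9-1, and their median level was 3.66. That list did not hold MIR218-2, a member at 7.54 whose microRNA is abundant in mouse motor neurons. The brightest of 5 p53-linked clusters was MIR34A at 6.39, and hypoxia-linked MIR210 stood at 5.73. None of 47 further clusters of the imprinted microRNA region on chromosome 14 was a member, the brightest being MIR668 at 7.12.

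The MIR548 genes, a primate-specific family related to a short transposable element, made up 30 members with 25 symbols. They were 25.9% of the members against 5.36% (58 clusters) of all microRNA clusters outside the RTL1 span. Their median level was 12.94 (range 7.28 to 18.19), against 8.15 for the other 86 members. The 28 further MIR548 clusters under the threshold had a median of 5.23 (4.12 to 7.01), below the highest background level of 7.17.

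The brightest member was a MIR548D1 cluster, with log2 signals of 17.90, 18.24 and 18.10 after MATR3 siRNA and 18.23, 18.24 and 18.45 in controls. MIR548AD followed at 17.45, 18.43 and 17.87 against 17.90, 17.71 and 17.72. The groups overlapped in both, for MIR548D1 only between 18.23 and 18.24. MIR548AI stood at 16.26, 15.33 and 15.29 after MATR3 siRNA and at 16.61, 15.60 and 15.26 in controls. MIR548AJ2 stood at 16.30, 15.42 and 15.25 against 16.57, 15.55 and 15.24, and MIR548D2 at 16.22, 15.61 and 15.10 against 16.54, 15.08 and 15.21. In these 3 clusters the replicate 1 arrays were the highest of each group and the groups overlapped.

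The brightest members outside the MIR548 family were MIR4737 and MIR4466. MIR4737 had signals of 15.09, 15.42 and 15.49 after MATR3 siRNA and 15.04, 15.19 and 15.15 in controls, a mean difference of 0.21 (SD 0.15). MIR4466 had 15.36, 14.72 and 14.60 against 15.42, 14.78 and 14.71, a mean difference of -0.08 (SD 0.03). Each differed one way in all 3 pairs, and the groups overlapped.

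The position of the MIR548 clusters did not match their symbols. A cluster's identifier carries a chromosome, and it was the RefSeq chromosome of the symbol in 99.7% of 22752 clusters with 1 symbol. Among the members, 27 of 116 differed, and 25 of these were MIR548 clusters, out of 30. The other 86 members included 2 that differed. The MIR548AN cluster on chromosome 13 stood at 13.39, while the one on X, its RefSeq chromosome, stood at 7.61. MIR548H2 likewise had 13.50 on chromosome 3 and 7.80 on chromosome 16, where RefSeq places it. In all, 5 symbols had 2 member clusters each. The brightest cluster with a matching chromosome, MIR548AD on chromosome 2, stood at 17.85, and the other 4 matching MIR548 members lay between 7.28 and 8.53.

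The exon-level table shows which probe sets carry these signals. It holds 237 probe sets annotated with the 111 symbols, 153 for exons and 84 for junctions between exons. In 111 of the 116 members the cluster's values equalled those of 1 exon probe set in all samples to within 0.005, so most members rest on 1 probe set, and 86 members had no other. For MIR548, the 25 exon probe sets equal to a member cluster had a median level of 13.39. The 12 other exon probe sets on a chromosome other than RefSeq's had a median of 11.14, and the 11 on the RefSeq chromosome had 5.21. The 74 junction probe sets of the same symbols had a median of 5.07, and 14 of them reached 7.2. The first of these medians follows from the rule, which took clusters of at least 7.2, and levels of different probe sets are given as a description. Which RNA these probe sets detect was not tested, and MIR548 values below are those of the clusters so annotated.

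**Figure D2:**
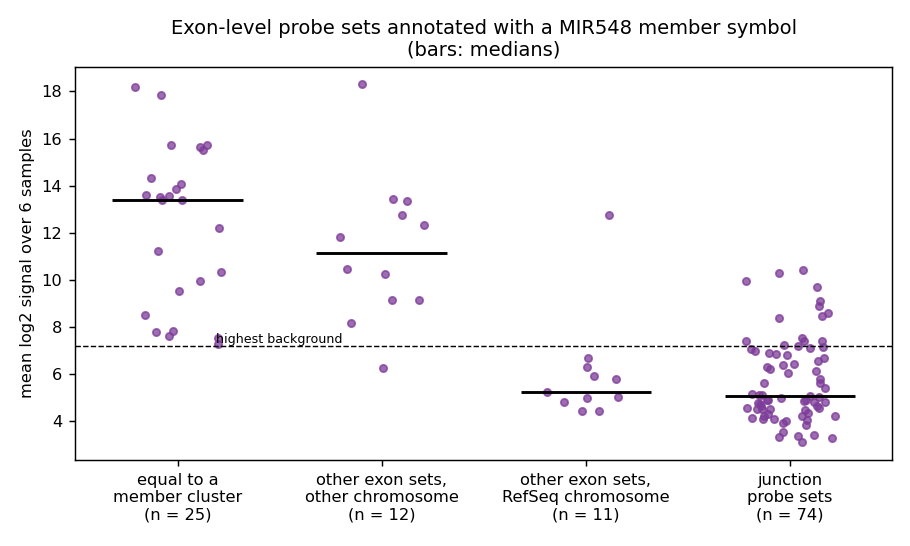
Mean log2 signal over 6 samples (y axis) of each exon-level probe set annotated with a MIR548 member symbol, in 4 groups, with bars at the medians and the highest background level dashed. Probe sets equal to a member cluster have a median of 13.39, other exon probe sets away from the RefSeq chromosome 11.14, those on it 5.21, and junction probe sets 5.07.

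After MATR3 siRNA the members differed from control in both directions in nearly equal number. Their median difference was 0.01, against 0.04 over all kept clusters, and 58 had a mean difference above 0 and 57 below. The median was -0.22 in pair 1, 0.14 in pair 2 and 0.03 in pair 3, against -0.01, 0.07 and 0.06 over all kept clusters. In limma's comparison of 3 against 3 samples without a block, 0 of 116 members had an adjusted p under 0.05, with a background of 0% of all kept clusters. At an unadjusted p under 0.05 there were 2 members, beside a background of 0.935%. This model called 0 of the 33782 kept clusters. The host gene SEPTIN6, described below, was not called either, at -1.08 with groups that did not overlap. The 0 calls therefore cannot show that the members did not change.

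Few members separated the groups. In 4 members (3.45%) the groups did not overlap, 3 higher after MATR3 siRNA and 1 lower, against a background of 3.4% of kept clusters (2.33% higher and 1.07% lower). Among kept clusters with 1 symbol the background was 2.24% (1.58% higher and 0.658% lower). Of the 3 higher members, MIR218-2 and MIR4468 met the threshold only after MATR3 siRNA, so the count is partly set by the choice of members. The difference had the same sign in all 3 pairs in 15 members upward and 22 downward, and signs were mixed in 79. The background shares were 22.5% upward and 13.5% downward over all kept clusters, and 26.9% and 14.4% over those with 1 symbol. The members' split was not tested against them. Changes of at least 1.5-fold were seen in 4 members, or 3.45%, beside 2.55% of all kept clusters and 1.08% of those with 1 symbol. They were MIR218-2, MIR4472-2, MIR9-1 and MIR26B, of which MIR218-2 and MIR9-1 met the threshold only after MATR3 siRNA.

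**Figure D3:**
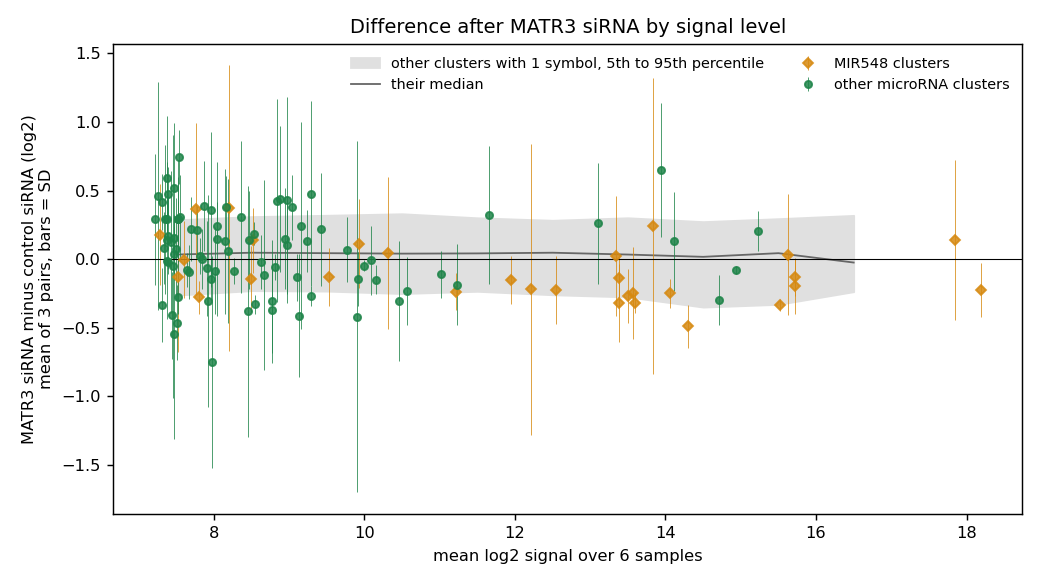
Mean difference of 3 pairs (y axis, log2, MATR3 siRNA minus control siRNA, bars = SD) against mean log2 signal (x axis) for 30 MIR548 clusters (diamonds) and 86 other members (circles), over the 5th to 95th percentile of other clusters with 1 symbol (grey). Most MIR548 clusters lie below 0, and the dimmest members scatter widest.

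The calls depended on the block and on which clusters entered the model. Replicate numbers paired the samples, and with the replicate number as a block limma called 0 members over all kept clusters (background 0%) and 0 over the 15209 kept clusters with 1 symbol (background 0.0526%). A block for the array set (replicate 1 against replicates 2 and 3) gave 0 calls among members over all kept clusters (background 0.00296%). Over clusters with 1 symbol the same model called 2 members, MIR218-2 higher and MIR548G lower, against a background of 3.48%. That is 1.72% of the members, a share below the background. At an unadjusted p under 0.05 this model had 30 members (25.9%), beside a background of 23.8%. With array weights limma called 23 of the 116 members, 20 higher and 3 lower, a share above the background of 9.45%. Neither share was tested against its background, and the 9.45% was not split by direction. Selection favoured higher values in the 7 members that met the threshold only after MATR3 siRNA. The count of 20 higher calls may therefore be partly set by the choice of members. None of 165 tested exon-level probe sets of the members was called (adjusted p under 0.05, background 0%; unadjusted background 3.68%).

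MIR218-2 had the highest difference. The gene encodes miR-218, which in mice is abundant in motor neurons. Its cluster had signals of 8.08, 7.71 and 7.94 after MATR3 siRNA and 7.50, 7.02 and 6.98 in controls. All 3 MATR3 siRNA values were above all control values. The mean difference was 0.74 (SD 0.20, n = 3 pairs), or 1.67-fold, higher in 3 of 3 pairs. The adjusted p in limma was 1 without a block, 0.27 with the replicate block, 0.106 with the array set over all clusters and 0.0224 with it over clusters with 1 symbol. The exact two-sided permutation test gave 0.1, the smallest p that 3 against 3 allow. Its control mean of 7.17 was at the highest background level, and it met the threshold only through the MATR3 siRNA group, so its selection favoured a higher value there.

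MIR218-2 lies at chr5:168768146-168768255 on the minus strand (GRCh38.p14), within the span of SLIT3 on the same strand. SLIT3 encodes a secreted axon guidance ligand. The SLIT3 cluster had 13.15, 12.49 and 12.60 after MATR3 siRNA and 13.05, 12.67 and 12.56 in controls. Its groups overlapped, and its mean difference was -0.01 (SD 0.15). The second copy of the gene, MIR218-1, which gives the same 5p strand, was below the threshold. Its signals were 6.51, 6.17 and 6.08 after MATR3 siRNA and 6.35, 5.87 and 5.83 in controls. They were higher in 3 of 3 pairs by 0.24 (SD 0.07), and the groups overlapped.

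MIR548G was the only member whose groups did not overlap with MATR3 siRNA lower. Its cluster had 15.55, 15.30 and 15.23 after MATR3 siRNA and 15.88, 15.59 and 15.61 in controls. The mean difference was -0.33 (SD 0.05, n = 3 pairs), 79.4% of control, lower in 3 of 3 pairs. Limma's adjusted p was 1 without a block, 0.138 with the array set over all clusters, 0.0883 with the replicate block over clusters with 1 symbol and 0.0339 with the array set there. The exact two-sided permutation p was 0.1.

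The values of MIR548G rest on 1 exon probe set whose identifier places it on chromosome 3. RefSeq places miR-548g-5p, printed above, at chr4:147344681-147344703 on the minus strand. The exon probe set of the symbol on chromosome 4 had 4.40, 3.97 and 5.31 after MATR3 siRNA and 4.67, 4.05 and 3.98 in controls. That probe set was at the background level, and its groups overlapped. The lower signal after MATR3 siRNA was therefore measured at the chromosome 3 probe set.

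The other members whose groups did not overlap were all higher after MATR3 siRNA. MIR4472-2 had 14.10, 14.28 and 14.40 after MATR3 siRNA and 13.99, 13.51 and 13.33 in controls. Its mean difference was 0.65 (SD 0.49), with pair differences from 0.11 to 1.07, and limma's adjusted p with the array set over clusters with 1 symbol was 0.0968. MIR4468 had 7.49, 7.74 and 7.32 against 7.26, 7.10 and 6.94, a mean difference of 0.42 (SD 0.21) with an adjusted p of 0.133 in the same limma model. MIR4472-2 was among the brightest members and MIR4468 among the dimmest. The second copy of the former, MIR4472-1, stood at 4.48 and was lower by 0.29 on average (SD 0.18).

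**Figure D4:**
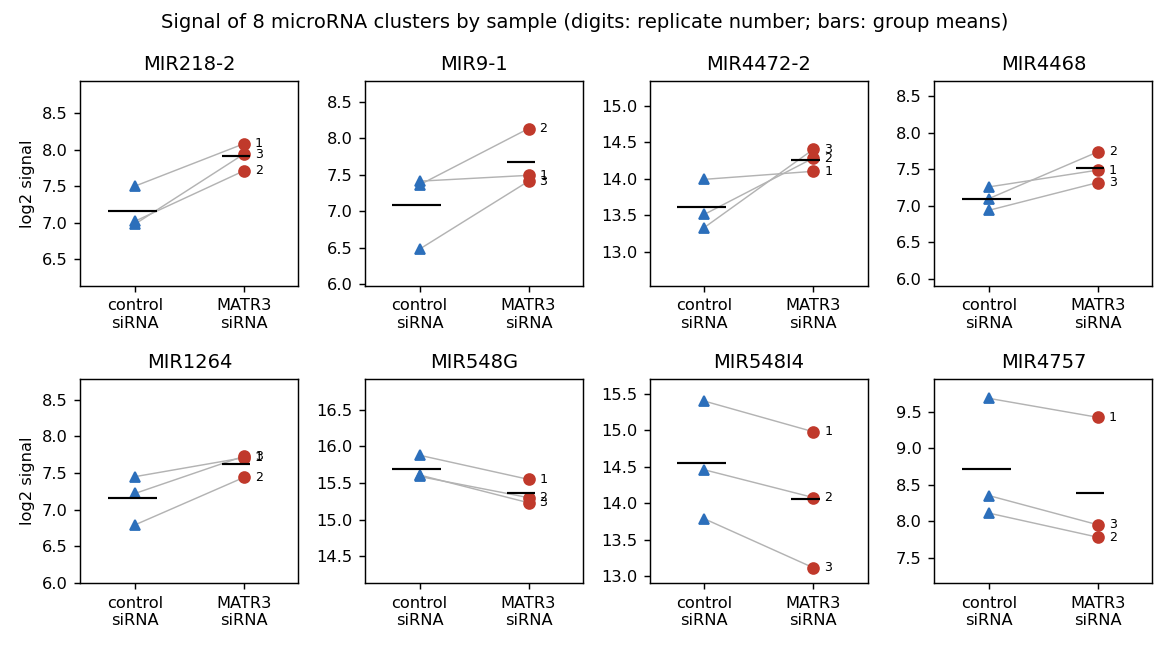
Log2 signal (y axis, the same span of 2.8 in each panel) of 8 microRNA clusters in control siRNA samples (triangles) and MATR3 siRNA samples (circles), joined by replicate number, with bars at the group means. All 3 circles lie above all 3 triangles for MIR218-2, MIR4472-2 and MIR4468 and below them for MIR548G, and in the other 4 panels the groups overlap or meet while every pair differs one way.

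MIR9-1 encodes miR-9, a microRNA of neural progenitors and neurons. Its cluster had 7.49, 8.13 and 7.41 after MATR3 siRNA and 7.41, 7.36 and 6.48 in controls. The groups met at 7.41, and the mean difference was 0.59 (SD 0.45), higher in 3 of 3 pairs. The host transcript MIR9-1HG stood at 5.77 with a difference of 0.02 (SD 0.07). MIR1264, which lies within the serotonin receptor gene HTR2C, had 7.71, 7.44 and 7.73 against 7.45, 6.79 and 7.22. It was higher in 3 of 3 pairs by 0.47 (SD 0.20), with overlapping groups, and HTR2C itself was at 4.01 with a difference of 0.02 (SD 0.19).

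MIR449B, which shares its seed family with miR-34 and is known from multiciliated cells, had 8.19, 8.12 and 7.88 against 8.18, 7.55 and 7.29. Its mean difference was 0.39 (SD 0.33). Its host CDC20B was at 4.51, and its neighbours MIR449A and MIR449C were at 4.84 and 4.29, all below the threshold. MIR4534 had 9.83, 9.08 and 8.76 against 9.62, 8.43 and 8.49 (0.38, SD 0.24), and MIR3192 had 8.52, 8.25 and 8.28 against 8.31, 7.97 and 7.64 (0.38, SD 0.23). These 3 were higher in every pair, and the groups overlapped in each.

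MIR25 was the only member of the miR-17-92 group and its paralogs. It is transcribed with MIR93 and MIR106B from an intron of MCM7, a subunit of the replicative helicase. Its signals were 7.86, 7.31 and 7.29 after MATR3 siRNA and 7.60, 7.37 and 7.37 in controls, and the groups overlapped. Its mean difference was 0.04 (SD 0.19), and that of MCM7 was 0.05 (SD 0.06) at 12.36. MIR93 stood at 4.90 and MIR106B at 3.81, with differences of 0.17 (SD 0.11) and 0.18 (SD 0.22). MIR25 was higher in 1 of 3 pairs. Neither MIR25 nor MCM7 was called by limma without a block or with the array set block over clusters with 1 symbol. MIR93 and MIR106B lay below 4.945, the median of all cluster means, and did not enter those models.

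Among members lower in all 3 pairs, MIR548I4 had the largest mean difference. Its signals were 14.98, 14.08 and 13.12 after MATR3 siRNA and 15.40, 14.46 and 13.79 in controls, a difference of -0.49 (SD 0.16). MIR548AN on chromosome 13 had 14.17, 13.09 and 12.42 against 14.24, 13.35 and 13.05 (-0.32, SD 0.28). Samples of a group lay further apart than the pairs in both clusters, so the groups overlapped.

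MIR4757 had the smallest SD among the dimmer clusters named as lower. Its signals were 9.42, 7.78 and 7.95 after MATR3 siRNA and 9.68, 8.11 and 8.35 in controls, a difference of -0.33 (SD 0.07). MIR1260A had 7.86, 7.01 and 6.95 against 8.08, 7.42 and 7.71 (-0.46, SD 0.27). MIR1260B, with the same seed, differed by 0.29 on average. MIR1282 had 9.25, 8.09 and 8.43 against 9.45, 8.82 and 8.61 (-0.37, SD 0.31). MIR4659A had 7.96, 7.11 and 6.65 against 8.68, 7.2 and 7.07 (-0.41, SD 0.32), and MIR4479 had 8.14, 6.74 and 6.57 against 8.16, 7.23 and 7.06 (-0.33, SD 0.27). None of these was called in a model with a block, and the groups overlapped in each. The lowest mean difference of all, -0.75 (SD 0.77) for MIR26B, had mixed signs and is named because it stood out after the values were seen. Its signals were 8.16, 7.41 and 7.24 against 9.48, 7.28 and 8.30.

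As a family, 20 of the 30 MIR548 clusters had lower means after MATR3 siRNA. Their median difference was -0.14, with 10 clusters above 0, while the other 86 members had a median of 0.08 with 48 above 0. Of the 30, 9 were lower in all 3 pairs and 0 were higher in all 3. Over the other members 15 were higher in all 3 pairs and 13 lower. The family's median was -0.33 in pair 1, -0.03 in pair 2 and -0.22 in pair 3. Besides MIR548G, MIR548I4 and MIR548AN, the clusters lower in all pairs were MIR548F1 (-0.25), MIR548AA2 (-0.32), both MIR548H2 clusters (-0.27 and -0.28), the brighter MIR548AC cluster (-0.23) and MIR548Q (-0.24). With 1 sample left out, the family's median ran from -0.43 (without MATR3 siRNA replicate 1) to 0.23 (without control replicate 1), and it was 0.06 without MATR3 siRNA replicate 3. The sign of the median therefore turned when single samples were left out. Without the same samples, in that order, the median over all kept clusters was -0.13, 0.245 and 0.14. Leaving out 1 array thus moved clusters in general. The turn cannot show whether the family's difference rests on single samples. Without both replicate 1 arrays the family's median was -0.06, and the contrast with the other members was not tested.

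Level and family went together. The 23 members at 12 or more, 17 of them MIR548 clusters, had a median difference of -0.20 with 8 above 0 (34.8%). The 49 members from 8 to 12 had a median of -0.01, and the 44 dimmest had 0.10. Over all kept clusters at the same levels the medians were 0.04, 0.05 and 0.04. The background probe set whose probes hold the fewest G and C bases read 7.15, 4.68 and 6.60 after MATR3 siRNA and 8.75, 5.00 and 6.41 in controls. The GC content given for miR-548 is that of mature sequences and not of the clusters' probes. Whether this background signal has a part in the MIR548 results was not tested.

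Host genes gave a second reading of the same loci. RefSeq spans of genes held 72 of the 89 members whose chromosome matched. A host on the same strand was measured for 38. Host differences ran from -1.08 to 0.31 with a median of 0.05. Of the 38 hosts, 34 lay within 0.25 of 0 on the log2 scale, and of the 38 microRNA clusters, 21 did. Many hosts lay below the highest background level of 7.17, from HTR2C at 4.01 and CDC20B at 4.51 to SH2B2 at 6.91 and PDE2A at 6.96. A difference near 0 shows little for such hosts. The direction was shared in 22 of 38. Over clusters with 1 symbol, 2 hosts were called by limma under the array set block (background 3.48%), both lower. HTR2C, CDC20B, LRRC26 and C16orf74 lay below the median of all clusters and did not enter that model.

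SEPTIN6, a cytoskeletal GTPase gene, is the host of MIR766. It stood at 13.63 and fell by 1.08 on the log2 scale (SD 0.21), with a limma adjusted p of 0.0199 in that model and 1 without a block. MIR766 within it had pair differences of -0.33, 0.66 and 0.60, a mean of 0.31 (SD 0.56). FAM114A1, the host of MIR574, stood at 7.94 and fell by 0.33 (SD 0.07), with a limma adjusted p of 0.0397 in that model and 1 without a block, and its groups overlapped. MIR574 had pair differences of -0.22, 0.77 and 0.42, a mean of 0.32 (SD 0.50). Both pairs were chosen after their values were seen, and both microRNA clusters had mixed signs, lower in pair 1 and higher in the others.

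**Figure D5:**
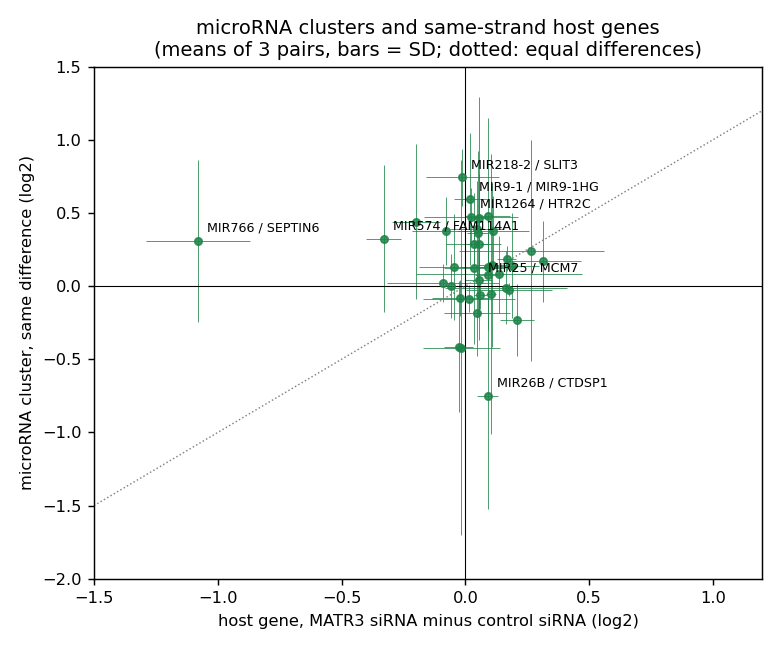
Mean difference of 3 pairs for 38 microRNA clusters (y axis, log2) against that of the same-strand host gene (x axis, log2), with bars for the SD and a dotted line of equal differences. Hosts lie close to 0 apart from SEPTIN6 at -1.08, while the microRNA clusters spread from -0.75 to 0.74. Many of the hosts have levels below the highest background level.

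The genes that make and use microRNAs differed by at most 0.35 on the log2 scale. Of 57 listed genes of processing, export, loading, silencing and decay, 44 had a kept cluster with 1 symbol, and the other 13, with DGCR8 and the 4 Argonaute genes among them, are not analysed here. Their median difference was 0.02, with 24 above 0 and 20 below, from -0.35 to 0.26. None was called by limma in the models without a block, with the replicate block or with the array set block, over all kept clusters or those with 1 symbol, against the backgrounds given above, and in 0 of the 44 did the groups not overlap. At an unadjusted p under 0.05 the list had 0 genes without a block and 12 with the array set over clusters with 1 symbol, where the background is 23.8%.

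By role, DROSHA, the nuclear RNase of the Microprocessor, stood at 10.93 with a difference of -0.05 (SD 0.12). The exporter XPO5 stood at 11.85 with 0.21 (SD 0.05, limma adjusted p = 0.0804 with the array set over clusters with 1 symbol). DICER1 had the lowest difference of the list, -0.35 (SD 0.19) at 10.89, with a limma adjusted p of 0.0714 in that model. The brightest genes were the chaperones HSP90AB1 (16.75) and HSP90AA1 (15.79), which help to load Argonaute, and ILF2 (15.28) and HNRNPA2B1 (14.67), RNA-binding proteins that act on primary transcripts. Their differences were 0.02 (SD 0.01), -0.18 (SD 0.06), -0.01 (SD 0.08) and -0.08 (SD 0.10). LIN28B, which blocks let-7 maturation, had the highest difference, 0.26 (SD 0.09), at a level of 7.29.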

How the data were processed

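Both tables, gene level and exon level, hold log2 signals deposited by the authors. Affymetrix Expression Console and RMA are named in the submitters' processing notes. Versions and the genome build are not given in the sources used here. No value was rescaled for the tests. Gene symbols came from the platform annotation, updated through RefSeq gene tables (GRCh38.p14). Tests used limma 3.58.1 in R 4.3.3 (lmFit and eBayes, two-sided, Benjamini-Hochberg adjusted p under 0.05) on the 33782 clusters and 456623 probe sets whose mean was no lower than the median of their table. The method was tested on simulated data. The settings and result of that test are not given here, so it does not vouch for the calls in these arrays. Figures used Python 3.11.15 and matplotlib 3.10.9. The number of arrays limits the precision.

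Replicate numbers come from the labels. Deviations from the group means correlated within numbers at 0.696, 0.327 and 0.527, so samples of one number were treated as pairs, although MATR3 siRNA replicate 2 correlated more with control replicate 3 (0.389). The members and all lists were chosen with earlier results of these data known. Members given in full were those called by limma without a block, with the replicate block or with the array set block. The 8 brightest, the 8 highest and 8 lowest with 1 sign in all pairs, and members of the listed microRNA families were added. Calls with array weights did not enter this choice. Of the 23 members so called, 5 were among the 24 named clusters. The alternatives were other normalizations, filters, blocks, array weights and leaving out samples.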

Additional observations from a re-analysis of the deposited data

How the results depend on the processing

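Over all kept clusters, 0 members were called by limma with no block, quantile normalization, median centring, no filter, a 75th percentile filter or 1 sample left out, and 0 with the replicate block that pairs the samples. Over all clusters tested, the same settings called 0, or 1 with quantile normalization. The 0 calls among members therefore cannot show that these did not change. The exceptions to 0 member calls were 23 with array weights and 2 with the array set block over clusters with 1 symbol. Of that model's variants, added after seeing the data, quantile normalization gave 2 calls, median centring 1 (MIR218-2), and leaving out any 1 sample 0. DICER1 was the 1 processing gene called, by that model with median centring. Exon-level calls were 0 with no block, the replicate block, the array set block, quantile normalization, no filter and each sample left out, and other settings were not run on that table. The 4 members whose groups did not overlap became 12 with quantile normalization, 11 with median centring and 2 among members at 8 or more. They ranged from 5 to 41 with 1 sample left out (24 without MATR3 siRNA replicate 1, 7 without MATR3 siRNA replicate 2 and 41 without control replicate 1). Without both replicate 1 arrays, an alternative added after seeing the data, they were 65 (56.0%, against 53.9% of all kept clusters). For the other alternatives the share over all kept clusters was not computed, so those counts cannot be read as particular to the members. The members' median difference ranged from -0.18 (without MATR3 siRNA replicate 1) to 0.32 (without control replicate 1), where all kept clusters had -0.13 and 0.25. Among 24 named clusters, 28 of 576 alternative values had the other sign. MIR218-2 stayed between 0.65 and 0.91 with 4 calls in 24 alternatives, and MIR548G between -0.43 and -0.24 with 2. Members near 7.2 lie at the highest background level, which limits what their signals can show.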
